A study of Mus musculus with 18 samples.

Results

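Unconventional myosins are actin motors that do not build the thick filaments of muscle. The 9 members described here are Myo1f, Myo1g, Myo1e, Myo3b, Myo5a, Myo6, Myo9a, Myo9b and Myo10, out of 18193 genes that the chip annotation names by at least 1 probe set of exactly 1 gene. The members have 24 such probe sets, and the leading probe set of each gene was chosen by its variance, the highest of the gene's over the 18 arrays. The RNA came from CD4 T cells of B6;129 mice, sorted fresh from lymph nodes together with spleen, and it was hybridised to Affymetrix mouse arrays.

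All mice were heterozygous at Foxp3, the X-linked master gene of regulatory T (Treg) cells, which suppress immune responses, with an hCD2 reporter on one allele and a GFP reporter on the other. Since X inactivation leaves each Treg cell with 1 active allele, mutant and wild-type Treg cells develop in the same animal. The mutant groups were hCD2+ GFP- cells from A384T:hCD2/WT:GFP mice (A384T), from I363V:hCD2/WT:GFP mice (I363V) and from R397W:hCD2/WT:GFP mice (R397W), with 3 arrays each. The 3 substitutions lie in the forkhead, the DNA-binding domain of Foxp3. The hCD2- GFP+ wild-type Treg cells of A384T:hCD2/WT:GFP mice (WT GFP in A384T mice) were on 3 arrays. From WT:hCD2/WT:GFP mice came hCD2+ GFP- Treg cells (WT hCD2, 2 arrays, numbered 3 and 4), hCD2- GFP+ Treg cells (WT GFP, 2 arrays) and hCD2- GFP- conventional T cells (Tconv, 2 arrays). Ages are not given in the sources used here, and they do not say whether arrays stand for separate animals. A p-value therefore measures the spread between these samples, which may be technical.

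Each log2 value below is a difference from the average Tconv array at its probe set. A value of 1 therefore means a signal 2 times that of Tconv, levels of different genes cannot be set against each other, and whether a probe set lies above background is not known. The arrays' medians ran from -0.06 to 0.02. The 7 Treg identity genes were all called higher than in Tconv in WT Treg, A384T, I363V and R397W. Of all genes, 5.68%, 6.37%, 2.39% and 1.98% were called in these comparisons, in either direction. Against WT hCD2, none of the 7 was called in A384T (2 at an unadjusted p under 0.05), 1 was called lower in I363V (Ikzf2, -0.91 ± 0.16, adjusted p = 0.0152) and 3 in R397W (Nrp1, Ikzf2 and Il2ra, -1.79 to -0.97), with medians of -0.13, -0.91 and -0.93. Shares of all genes called there were 0.269%, 0.863% and 2.13%. Foxp3 itself differed from WT hCD2 by 0.15 ± 0.19 in A384T (SE, adjusted p = 0.899), by -0.34 ± 0.19 in I363V (0.692) and by -0.55 ± 0.19 in R397W (0.23), in limma's test with Benjamini-Hochberg adjustment, which is used throughout. Foxp3 was called higher in A384T than in R397W (0.70 ± 0.17, adjusted p = 0.0473). In bulk RNA, fewer cells of a type and less RNA per cell cannot be told apart.

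Class I myosins (Myo1e, Myo1f, Myo1g) are single-headed motors that link the plasma membrane to cortical actin. Myo5a carries organelles along actin, Myo6 is the motor that walks toward the pointed end of the filament and serves in endocytosis, and Myo10 works at the tips of filopodia. Myo9a and Myo9b are class IX myosins, and Myo3b, best known from the stereocilia of hair cells, carries a kinase domain. In T cells these motors act beneath the membrane, where actin shapes migration and the contact with other cells.

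The variances that chose the probe sets were largest for Myo1f (1.53, rank 56 of 18193 genes), Myo6 (1.09, rank 109) and Myo1e (0.769, rank 241). They were 0.375 for Myo3b (rank 739), 0.254 for Myo10 (rank 1290) and 0.17 for Myo5a (rank 2319). Myo9b (0.089), Myo9a (0.07) and Myo1g (0.063) varied least. A probe set picked for its variance favours large differences between groups, so the differences of Myo1f, Myo6, Myo1e and Myo10 are given with those of the same gene's other probe sets, which the choice passed over. Myo1g and Myo3b have 1 probe set each, so no choice among probe sets was made there. The genes themselves, these included, were chosen with earlier results of these data known.

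The promoters of Myo6 and Myo1f, the members with the largest differences between mutant and wild-type Treg cells, are shown, as windows of 300 bases from RefSeq (GRCm38.p6) that run from 250 bases before the transcription start, on the strand of the gene. All 9 members matched an entry. Capitals mark matches on either strand to GTAAACA (forkhead), TGTGGT (Runx), GGAAGT (Ets) or TGANTCA (AP-1), short motifs of factor families active in Treg cells.
Myo6, chr9:80164784-80165083, plus strand: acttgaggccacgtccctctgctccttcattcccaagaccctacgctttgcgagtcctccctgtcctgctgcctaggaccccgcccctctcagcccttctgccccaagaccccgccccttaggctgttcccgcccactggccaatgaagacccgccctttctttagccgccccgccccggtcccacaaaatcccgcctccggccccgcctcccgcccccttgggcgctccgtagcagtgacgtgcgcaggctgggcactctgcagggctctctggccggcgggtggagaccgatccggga
Myo1f, chr17:33555457-33555756, plus strand: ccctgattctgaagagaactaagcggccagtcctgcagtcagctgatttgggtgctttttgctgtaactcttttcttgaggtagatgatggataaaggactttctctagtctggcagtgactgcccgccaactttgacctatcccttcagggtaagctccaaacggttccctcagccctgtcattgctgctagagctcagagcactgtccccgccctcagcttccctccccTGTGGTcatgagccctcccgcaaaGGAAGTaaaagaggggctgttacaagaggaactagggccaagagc
The Myo6 window holds none of these letters. Myo1f has a Runx match at bases 232 to 237 and an Ets match at bases 256 to 261, counted from 1 at the 5′ end of the window. Over all 32851 windows of this length, 3.65% hold the forkhead letters, 16.8% the Runx letters, 23.8% the Ets letters and 7.81% the AP-1 letters, so single matches are common. GC content was 68.3% in the Myo6 window and 53.0% in the Myo1f window, and the median of all windows was 52.7%. No window of the 9 members holds the forkhead or AP-1 letters, which says only that these letters are not there.

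Myo6 separated A384T from the other 2 mutants. In A384T it stood at -0.72, -0.94 and -0.85 relative to Tconv. In I363V the 3 arrays gave 1.86, 2.06 and 1.73, and in R397W 2.36, 2.04 and 1.68. At this leading probe set, every A384T array was below every other array of the series. There, all 6 I363V and R397W arrays were above all wild-type Treg arrays. The wild-type cells of A384T mice gave 1.18, 0.80 and 0.82. WT hCD2 gave 1.14 and 0.49, WT GFP 1.51 and 0.84, and Tconv 0.33 and -0.33. The order of group means was thus R397W (2.03 ± 0.34, SD, n = 3), I363V (1.88 ± 0.16, n = 3), WT GFP (1.18 ± 0.47, n = 2), WT GFP in A384T mice (0.94 ± 0.21, n = 3), WT hCD2 (0.82 ± 0.46, n = 2), Tconv (0) and A384T (-0.83 ± 0.11, n = 3).

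**Figure D1:**
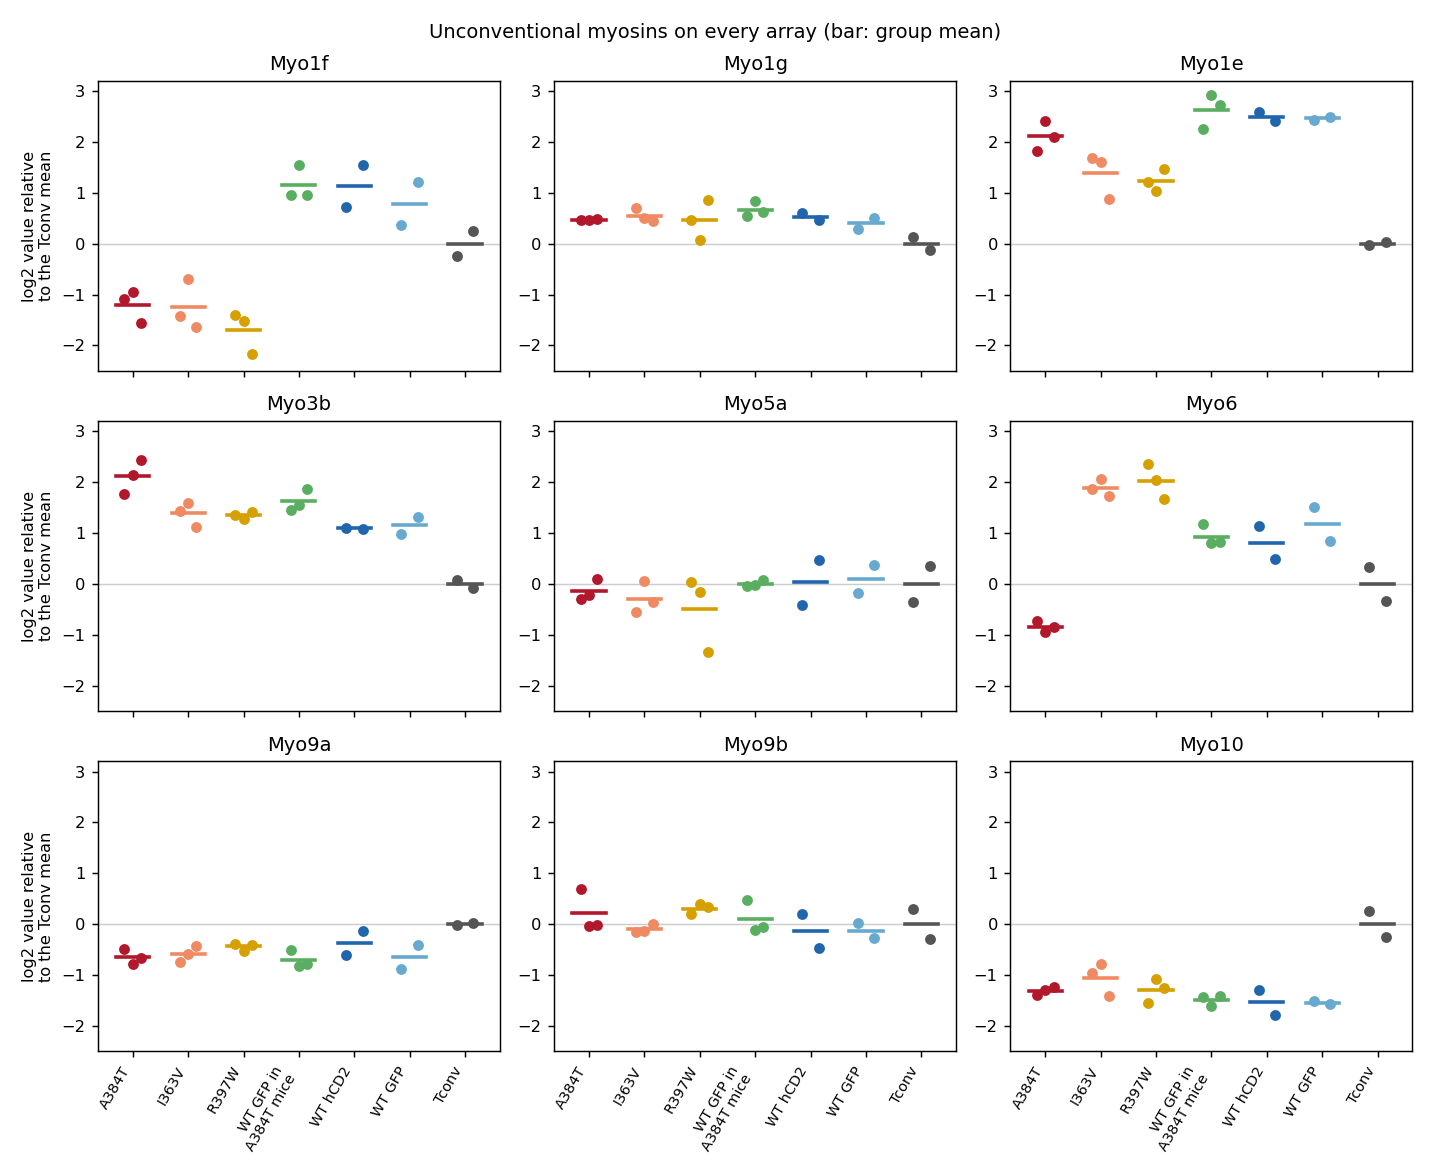
Log2 value relative to the Tconv mean (y axis) of each member's largest-variance probe set in the 7 groups (x axis), with 1 point per array and a bar at the group mean. Myo6 is lowest in A384T (-0.94 to -0.72) and highest in I363V and R397W (1.68 to 2.36), Myo1f is below Tconv in all 9 mutant arrays, and Myo10 lies between -1.78 and -0.79 in every Treg array.

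Between mutants, Myo6 was 6.58-fold lower in A384T than in I363V (log2 difference -2.72 ± 0.23, adjusted p = 3.59e-05) and 7.26-fold lower than in R397W (-2.86 ± 0.23, adjusted p = 9.80e-06). I363V and R397W differed by -0.14 ± 0.23 (adjusted p = 0.921). Myo6 was the only 1 of 9 members called between A384T and I363V, a comparison in which 1.1% of all genes were called. Both calls held in every fit that left out 1 array.

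Against WT hCD2, which carries the same reporter, Myo6 fell in A384T by 1.65 on the log2 scale (difference -1.65 ± 0.26, adjusted p = 0.0168) and rose in R397W by 1.21 ± 0.26 (adjusted p = 0.0263). In I363V it was 1.07 ± 0.26 higher, which did not pass the test (adjusted p = 0.0863). The 3 comparisons share the 2 WT hCD2 arrays. Fitted on only the 2 groups compared, the A384T call ended (adjusted p = 0.0681) and so did the R397W call (0.281). The A384T call also ended without WT hCD2 replicate 3 (-1.33, adjusted p = 0.163), A384T replicate 2 (-1.60, 0.0694) or A384T replicate 3 (-1.64, 0.0695), and the R397W call without WT hCD2 replicate 4 (0.88, 0.296), R397W replicate 1 (1.04, 0.0899) or R397W replicate 2 (1.20, 0.0586).

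Within A384T mice, Myo6 was 3.41-fold lower in A384T cells than in the wild-type cells beside them (-1.77 ± 0.23, adjusted p = 0.00206). The 3 mutant arrays and the 3 wild-type arrays did not overlap, and the call held with each array left out. Against Tconv, Myo6 was higher in I363V (1.88 ± 0.26, adjusted p = 6.62e-04), in R397W (2.03 ± 0.26, adjusted p = 3.89e-04) and in WT Treg, the 4 arrays of WT hCD2 and WT GFP together (1.0 ± 0.24, adjusted p = 0.0272). The WT Treg call ended without Tconv replicate 2 (0.67, 0.429), WT GFP replicate 1 (0.83, 0.0888) or WT hCD2 replicate 3 (0.83, 0.0937). On only the groups compared, it ended (0.206) and so did the R397W call (0.0834). A384T stood 0.83 below Tconv (-0.83 ± 0.26), which did not pass the test (adjusted p = 0.0806).

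The other probe sets of Myo6 followed the first with Pearson r of 0.98 (1435559_at) and 0.82 (1421120_at) over the 18 arrays, which share groups and libraries. With 1435559_at, A384T was lower than I363V (log2 difference -1.94, adjusted p = 0.00138) and than R397W (-2.07, adjusted p = 5.13e-04). At 1435559_at, A384T minus WT hCD2 (-1.16, adjusted p = 0.185) and the difference within A384T mice (-1.10, adjusted p = 0.114) did not pass the test. Neither did I363V (0.78, 0.378) or R397W minus WT hCD2 (0.91, 0.174), or WT Treg minus Tconv (0.64, 0.278). I363V (1.34, adjusted p = 0.0243) and R397W (1.46, 0.0151) were called higher than Tconv there. However, the lowest I363V (1.05) and R397W (0.97) arrays at 1435559_at lay below the highest WT GFP array (1.12). The third, 1421120_at, was called in no comparison: A384T differed from I363V by -0.68 and from Tconv by 0.07. Its A384T arrays (-0.02 to 0.16) overlapped with Tconv (-0.03 to 0.03) and with WT hCD2 (0.08 to 0.62). With the mean of the 3 probe sets, 3 Myo6 calls ended: A384T minus WT hCD2 (-1.03, adjusted p = 0.075), R397W minus WT hCD2 (0.84, 0.0695) and WT Treg minus Tconv (0.69, 0.0743).

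**Figure D2:**
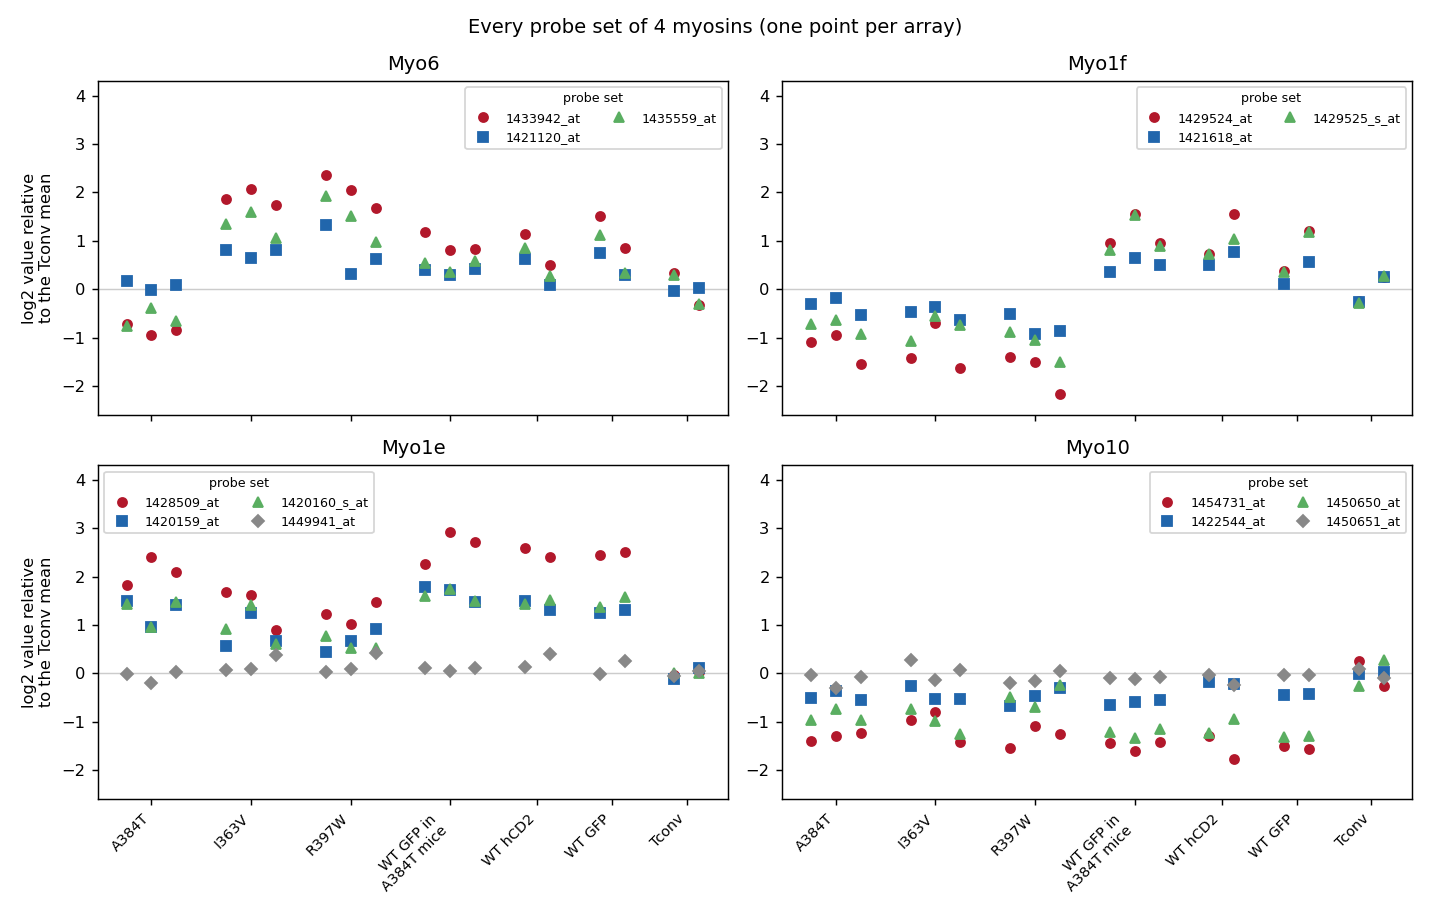
Log2 value relative to the Tconv mean (y axis) of every probe set of Myo6, Myo1f, Myo1e and Myo10 on each array, by group (x axis), with marker and colour for the probe set. The sets of Myo6 and of Myo1f move together at different amplitude, whereas 1449941_at of Myo1e (variance 0.026) and 1450651_at of Myo10 (variance 0.017) stay near 0.

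Myo1f, a class I myosin known in mice for neutrophil adhesion and migration, was low in all 3 mutants. It stood at -1.09, -0.95 and -1.55 in A384T, at -1.42, -0.70 and -1.63 in I363V, and at -1.40, -1.51 and -2.16 in R397W. In the wild-type cells of A384T mice it was 0.96, 1.55 and 0.95. WT hCD2 gave 0.73 and 1.55, WT GFP 0.37 and 1.21, and Tconv -0.25 and 0.25. At this leading probe set, all 9 mutant arrays were below both Tconv arrays, and all 7 wild-type Treg arrays were above both.

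Myo1f was 5.05-fold lower in A384T than in WT hCD2 (-2.34 ± 0.35, adjusted p = 0.0136), 5.24-fold lower in I363V (-2.39 ± 0.35, adjusted p = 0.00437) and 7.10-fold lower in R397W (-2.83 ± 0.35, adjusted p = 6.37e-04). It was the only 1 of 9 members called in I363V, where 0.863% of all genes were called, and 4 members had an unadjusted p under 0.05. Fitted on only the 2 groups compared, all 3 calls ended (adjusted p = 0.0681, 0.113 and 0.065 for A384T, I363V and R397W). Without WT hCD2 replicate 4, the higher of the 2 arrays, the A384T call ended (-1.93, adjusted p = 0.373) and so did the I363V call (-1.98, 0.141), and the A384T call ended without A384T replicate 3 (-2.16, 0.0695).

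In the comparison within A384T mice, which does not use the WT hCD2 arrays, Myo1f was 5.10-fold lower in A384T cells than in their wild-type neighbours (-2.35 ± 0.31, adjusted p = 0.00246), in all 3 pairs of equal number and in every fit that left out an array. No difference between mutants passed the test: A384T minus I363V was 0.05 ± 0.31 (adjusted p = 0.984), A384T minus R397W 0.49 ± 0.31 (0.511) and I363V minus R397W 0.44 ± 0.31 (0.764). Against Tconv, R397W was called lower (-1.69 ± 0.35, adjusted p = 0.0227), while A384T (-1.20, 0.0657), I363V (-1.25, 0.102) and WT Treg (0.97 ± 0.33, 0.148) did not pass. The R397W call ended without R397W replicate 3 (-1.45, 0.0871), Tconv replicate 1 (-1.94, 0.0563) or Tconv replicate 2 (-1.43, 0.276), and on only those 2 groups (0.15), where A384T passed (0.0298).

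The 2 other probe sets of Myo1f correlated with the first at r of 0.99 and 0.97 over the 18 arrays. With 1429525_s_at the differences from WT hCD2 were -1.64 in A384T, -1.67 in I363V and -2.03 in R397W, and -1.84 within A384T mice, all called. With 1421618_at, I363V (-1.12), R397W (-1.41) and the comparison within A384T mice (-0.84, adjusted p = 0.0438) were called, and A384T minus WT hCD2 was not (-0.98, adjusted p = 0.0555). R397W minus Tconv passed with neither 1429525_s_at (-1.15, adjusted p = 0.0567) nor 1421618_at (-0.77, 0.0579). At 1421618_at, A384T (-0.54 to -0.19) and WT GFP (0.10 to 0.56) overlapped with Tconv (-0.26 to 0.26).

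Myo1f is known from myeloid cells, so the 13 measured of 15 myeloid and neutrophil marker genes are given beside it. Their median on each array ran from -0.77 to 0.02 in A384T, -0.31 to -0.03 in I363V, -1.16 to -0.89 in R397W, -0.49 to 0.26 in WT GFP in A384T mice, 0.21 to 0.24 in WT hCD2, -0.05 to 0.02 in WT GFP and -0.06 to 0.06 in Tconv. The median difference from WT hCD2 was -0.57 in A384T, -0.44 in I363V and -0.73 in R397W, and within A384T mice it was -0.17. In R397W the lysozyme genes Lyz1 (-4.41 ± 0.38, adjusted p = 3.54e-05) and Lyz2 (-2.66 ± 0.35, adjusted p = 9.40e-04) were called lower than in WT hCD2. In the other 3 of these comparisons none of the 13 was called by limma, and 3, 2 and 1 of them had an unadjusted p under 0.05 in A384T, in I363V and within A384T mice. Shares of all genes called were 0.269%, 0.863% and 0.517% there, and 2.13% in R397W minus WT hCD2. Because levels are lost, which markers are at 0 cannot be read, and the part of these cells in the Myo1f values was not tested.

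**Figure D3:**
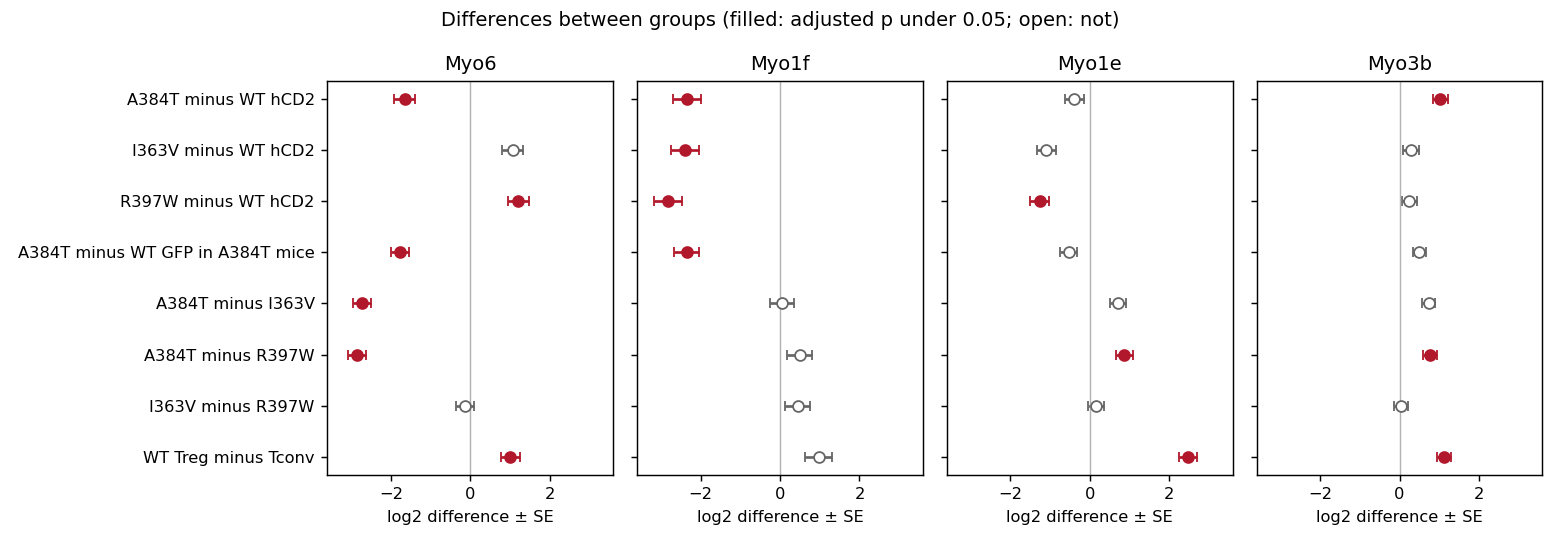
Log2 difference with its SE (x axis) of Myo6, Myo1f, Myo1e and Myo3b in 8 comparisons (y axis), filled where the adjusted p was under 0.05. Myo1f is lower in each mutant (-2.34, -2.39 and -2.83 against WT hCD2), while Myo6 points down in A384T (-1.65) and up in R397W (1.21).

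Myo1e, a long-tailed class I myosin that works in endocytosis and in kidney podocytes, separated Treg cells from Tconv. It was 1.82, 2.41 and 2.10 in A384T, 1.68, 1.61 and 0.89 in I363V, and 1.22, 1.03 and 1.47 in R397W. WT GFP in A384T mice gave 2.26, 2.93 and 2.72, WT hCD2 2.59 and 2.41, WT GFP 2.44 and 2.50, and Tconv -0.03 and 0.03. Every Treg array was above both Tconv arrays at this leading probe set. All 6 I363V and R397W arrays there were below all wild-type Treg arrays, and the highest A384T array (2.41) exceeded the lowest wild-type one (2.26).

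In WT Treg, Myo1e was 5.59-fold higher than in Tconv (2.48 ± 0.23, adjusted p = 5.39e-06). A384T (2.11 ± 0.24, adjusted p = 4.98e-05), I363V (1.40 ± 0.24, 0.00471) and R397W (1.24 ± 0.24, 0.0134) were also called higher than Tconv. The call in I363V ended without Tconv replicate 2 (1.43, 0.0531). In R397W it ended without either Tconv array (1.21, 0.11, and 1.27, 0.106) or R397W replicate 3 (1.12, 0.053). Fitted on only the 2 groups compared, both ended (0.108 in I363V and 0.0792 in R397W).

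Of the mutants, R397W was called lower than WT hCD2 for Myo1e (-1.26 ± 0.24, adjusted p = 0.0133). I363V was 1.10 lower (-1.10 ± 0.24), just outside the threshold (0.0521), and A384T differed by -0.39 ± 0.24 (0.731). The R397W call ended without WT hCD2 replicate 3 (-1.17, 0.155) or 4 (-1.35, 0.0821), and when fitted on only the 2 groups (0.0931). With 1 probe set per gene in the test, I363V passed as well (0.0476). The direct difference between A384T and R397W was 0.87 ± 0.21 (adjusted p = 0.0466). That call ended without A384T replicate 2 (0.72, 0.207) or 3 (0.87, 0.126), without R397W replicate 1 (0.86, 0.104) or 2 (0.77, 0.14), and on only those 2 groups (0.0804). With all probe sets of the chip in the test it ended too (0.0554). A384T and I363V differed by 0.71 ± 0.21, which did not pass (0.21). Of the 7 Treg identity genes, 1 was called lower in I363V and 3 in R397W against WT hCD2 (medians -0.91 and -0.93), and 4 were called higher in A384T than in R397W (median 0.74). These comparisons called 0.863%, 2.13% and 2.9% of all genes. The part of Treg identity in the Myo1e values was not tested.

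Of the other Myo1e probe sets, 1420160_s_at and 1420159_at followed the first with r of 0.91 and 0.89, and 1449941_at did not (0.02). In WT Treg minus Tconv, 1420160_s_at gave 1.47 and 1420159_at 1.33, and in A384T minus Tconv 1.28 and 1.29, all called. In I363V minus Tconv the first was called (0.98, adjusted p = 0.0178) and the second was not (0.82, 0.0585), and in R397W minus Tconv neither was (0.61, adjusted p = 0.223, and 0.68, 0.167). The differences of 1449941_at from Tconv were -0.06 to 0.20 in these groups, none called. In R397W minus WT hCD2, 1420160_s_at and 1420159_at gave -0.87 (adjusted p = 0.0419) and -0.72 (0.121). For A384T minus R397W neither passed (0.68, adjusted p = 0.0653, and 0.62, 0.106). The highest I363V array exceeded the lowest WT GFP array at 1420160_s_at (1.42 and 1.37) and at 1420159_at (1.25 and 1.24).

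Myo3b, with its kinase domain, was highest in A384T. Its arrays read 1.77, 2.14 and 2.44 in A384T, 1.43, 1.60 and 1.13 in I363V, and 1.36, 1.27 and 1.41 in R397W. WT GFP in A384T mice gave 1.45, 1.55 and 1.87, WT hCD2 1.11 and 1.08, WT GFP 0.98 and 1.32, and Tconv 0.08 and -0.08. All 3 A384T arrays were above all arrays of other groups except the highest of the wild-type cells of A384T mice, which exceeded the lowest A384T array.

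Against Tconv, Myo3b was higher in A384T (2.12 ± 0.19, adjusted p = 3.88e-06), I363V (1.39 ± 0.19, 6.16e-04), R397W (1.35 ± 0.19, 9.61e-04) and WT Treg (1.12 ± 0.18, 0.00111), and all 4 calls held with each array left out. Against WT hCD2 it rose in A384T (1.03 ± 0.19, adjusted p = 0.0419), but not past the test in I363V (0.29, 0.739) or R397W (0.25, 0.725). That A384T call ended on only the 2 groups (0.236), without either WT hCD2 array (1.04, 0.186, and 1.01, 0.485), and without A384T replicate 2 (1.02, 0.142) or 3 (0.87, 0.158). A384T exceeded R397W by 0.77 ± 0.17 (adjusted p = 0.0249), which ended without A384T replicate 2 (0.76, 0.0922) or 3 (0.61, 0.11), R397W replicate 1 (0.78, 0.0573) or 2 (0.74, 0.0729), and on those 2 groups (0.0974). It exceeded I363V by 0.73 ± 0.17, short of the threshold (0.0582).

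Over all members within A384T mice, 2 of 9 members were called, both lower (Myo1f and Myo6), and 0.517% of all genes were called. A384T cells differed from the wild-type cells by -0.53 ± 0.21 for Myo1e (adjusted p = 0.844) and by 0.50 ± 0.17 for Myo3b (0.52). Arrays of equal number in these 2 groups deviated together, and with the replicate number as a block 4 members were called: Myo1f (-2.35 ± 0.10, adjusted p = 2.05e-05), Myo6 (-1.77 ± 0.08, 2.28e-05), Myo1e (-0.53 ± 0.08, 0.00637) and Myo3b (0.50 ± 0.08, 0.0127). Myo1e was lower in the A384T array, and Myo3b higher, in each of the 3 pairs. The share of all genes called with the block was not computed, and the 0.517% belongs to the fit without it.

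**Figure D4:**
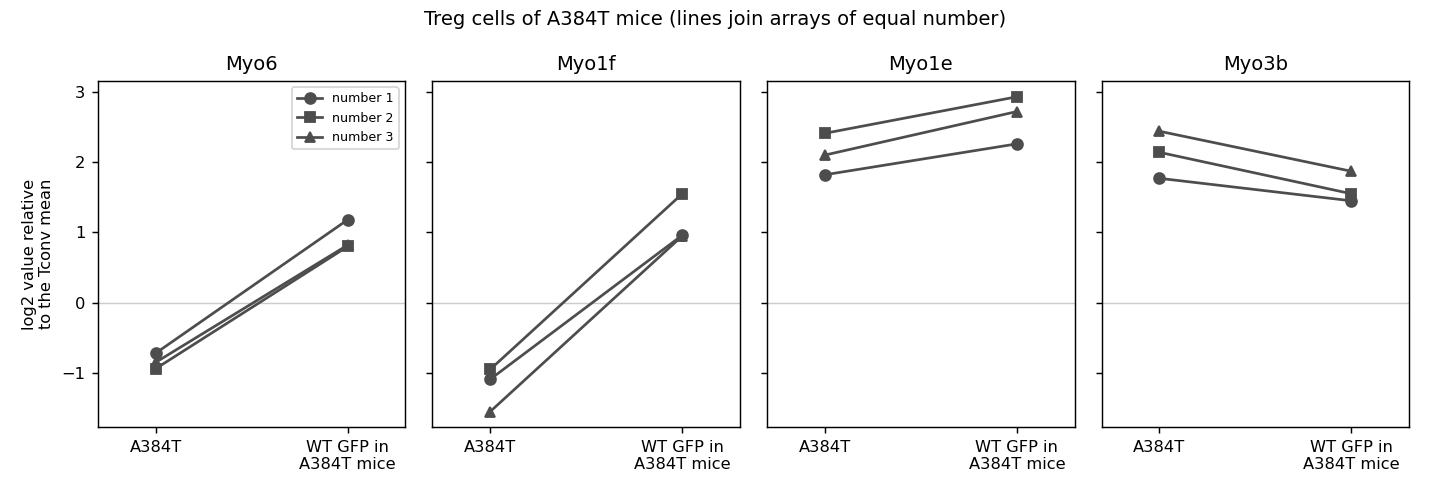
Log2 value relative to the Tconv mean (y axis) in A384T cells and in WT GFP cells of A384T mice (x axis), with lines joining arrays of equal number, for Myo6, Myo1f, Myo1e and Myo3b. All 3 lines run the same way in each panel, with mean differences of -1.77, -2.35, -0.53 and 0.50.

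Wild-type cells of A384T mice were set against WT GFP cells of wild-type mice to see whether the mutant neighbours went with a change. There limma called none of the members (0% of all genes), and 1 member, Myo3b (0.47 ± 0.19), was under 0.05 before adjustment. For the reporter alone, WT hCD2 minus WT GFP, none was called (0% of all genes), and no member had an unadjusted p under 0.05. The arrays of wild-type mice did not all vary independently: WT hCD2 replicate 3 deviated from its group mean together with WT GFP replicate 1 (correlation over probe sets 0.77) and Tconv replicate 1 (0.72). With 2 arrays a group their deviations are mirror images, so replicates 4 and 2 add no second pair. No label links those numbers, so no fit used the link, and its effect on this comparison, on the interaction and on the 4-array WT Treg group was not tested. Whether the difference within A384T mice exceeded that of the reporters was tested as an interaction. It called none of the 9 (0.044% of all genes) and 2 had an unadjusted p under 0.05, with -2.70 ± 0.49 for Myo1f (adjusted p = 0.136) and -1.41 ± 0.36 for Myo6 (0.538). No block entered this fit, although arrays of equal number in A384T and in WT GFP in A384T mice deviated together.

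Over all 9 members, 3 were called in A384T minus WT hCD2 (1 higher and 2 lower, against 0.269% of all genes), 3 in R397W minus WT hCD2 (1 higher and 2 lower, against 2.13%) and 3 in A384T minus R397W (2 higher and 1 lower, against 2.9%). None was called between I363V and R397W (0.0824% of all genes), and none of the 9 had an unadjusted p under 0.05 there. Against Tconv, 4 were called in WT Treg (3 higher, 1 lower; 5.68% of all genes), 4 in A384T (2 and 2; 6.37%), 4 in I363V (3 and 1; 2.39%) and 5 in R397W (3 and 2; 1.98%). The median difference of the 9 in WT Treg minus Tconv was 0.47, and that of all genes was -0.01. Against WT hCD2 the members' medians were -0.17, 0.02 and -0.05 in A384T, I363V and R397W, and that of all genes was -0.02 in each. The members were chosen with earlier results of these data known, so these counts and medians are descriptions and do not test the members as a set.

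Myo10, the filopodial myosin, was low in every Treg group, and no comparison among Treg groups called it. It stood at -1.40, -1.29 and -1.24 in A384T, -0.96, -0.79 and -1.42 in I363V, and -1.55, -1.08 and -1.25 in R397W. WT GFP in A384T mice gave -1.43, -1.61 and -1.42, WT hCD2 -1.29 and -1.78, WT GFP -1.51 and -1.57, and Tconv 0.26 and -0.26. No Treg array overlapped with Tconv at the leading probe set. It was lower than in Tconv in A384T (-1.31 ± 0.20, adjusted p = 8.68e-04), I363V (-1.06 ± 0.20, 0.0112), R397W (-1.29 ± 0.20, 0.0025) and WT Treg (-1.54 ± 0.19, 1.21e-04). Without Tconv replicate 1 the calls in I363V (-0.79, 0.154) and R397W (-1.03, 0.0587) ended, as they did on only the groups compared (0.196 and 0.164). The probe set 1450650_at was called lower in A384T (-0.89), I363V (-0.99) and WT Treg (-1.20), and 1422544_at in A384T (-0.47). In R397W, 1450650_at was -0.47, which did not pass (adjusted p = 0.352), and the highest R397W array there (-0.24) was above the lower Tconv array (-0.27). With 1422544_at, I363V (-0.44, adjusted p = 0.0711), R397W (-0.48, 0.0516) and WT Treg (-0.32, 0.142) did not pass, and 1450651_at was called in none of the 4, at -0.14 to 0.07. Of the 7 dendritic cell markers, 3 were called lower than Tconv in WT Treg, 4 in A384T, 2 in I363V and 3 in R397W, with medians of -0.46, -0.64, -0.64 and -0.49. Shares of all genes called there, in either direction, were 5.68%, 6.37%, 2.39% and 1.98%. Over all Treg groups, the markers Itgax and H2-Ab1 had group means of -1.25 to -1.11 and -2.48 to -1.74. Flt3 ran from -0.66 to -0.44, Cd209a from -0.54 to -0.44 and Siglech from -0.33 to -0.14. Xcr1 stayed at -0.16 to 0.01, and Zbtb46 ran from -0.70 to 0.18, the latter in R397W. Against Tconv, H2-Ab1 was called in A384T only (-2.48 ± 0.67, adjusted p = 0.0443). The part of dendritic cells in the Myo10 values was not tested.

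Myo9a, a class IX myosin, was -0.49, -0.79 and -0.66 in A384T, against -0.02 and 0.02 in Tconv. The difference of -0.65 ± 0.17 was called (adjusted p = 0.0355), and it ended without A384T replicate 2 (-0.58, 0.123) or 3 (-0.64, 0.0901) or either Tconv array (-0.66, 0.125, and -0.63, 0.221). Group means in the other Treg groups lay between -0.70 (WT GFP in A384T mice) and -0.38 (WT hCD2), and none of those compared with Tconv was called. Its second probe set correlated with the first at 0.60, and there A384T minus Tconv did not pass (-0.46, adjusted p = 0.14).

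Myo1g, Myo5a and Myo9b were called in none of the 14 comparisons. Myo1g, a myosin of blood cells that tunes membrane tension in T cells, had group means of 0.48 ± 0.01 (A384T), 0.55 ± 0.14 (I363V), 0.46 ± 0.40 (R397W), 0.67 ± 0.16 (WT GFP in A384T mice), 0.54 ± 0.10 (WT hCD2) and 0.40 ± 0.16 (WT GFP), with SD over the 3 or 2 arrays. Every Treg array but R397W replicate 2 (0.07) was above the higher Tconv array (0.13). Myo5a, the organelle carrier behind the dilute coat colour, ran from -1.34 to 0.48, and its lowest array, R397W replicate 3, stood apart from the other 2 of that group (0.03 and -0.16). Myo9b ran from -0.46 to 0.70, where the highest array, A384T replicate 1, stood above the other 2 of its group (-0.04 and -0.02). Its other probe sets correlated with the first at -0.07 and -0.34.

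Of 14 measured of 16 other unconventional myosins, 2 were called higher in WT Treg than in Tconv (5.68% of all genes were called there): Myo1c, a class I myosin of membrane traffic (1.0 ± 0.12, adjusted p = 5.71e-05), and Myo1h (0.77 ± 0.18, 0.0192). Myo1c was lower than in WT hCD2 in I363V (-0.68 ± 0.12, adjusted p = 0.0171) and R397W (-0.77 ± 0.12, 0.00386), the 1 gene of the 14 called in each (0.863% and 2.13% of all genes). None of the 14 was called in A384T minus WT hCD2 or within A384T mice (0.269% and 0.517% of all genes), where 1 and 2 had an unadjusted p under 0.05. Myo18a was the 1 called in A384T minus R397W (2.9% of all genes), and it was higher (0.91 ± 0.22, adjusted p = 0.0455).

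Of 10 measured of 13 myosin II and light chain genes, 1 was called in each of A384T minus Tconv (6.37% of all genes), A384T minus I363V (1.1%) and A384T minus R397W. Myh10 was higher in A384T than in Tconv (0.64 ± 0.15, adjusted p = 0.0206) and in I363V (0.65 ± 0.13, adjusted p = 0.0328) and Myh9, the main non-muscle heavy chain of T cells, was higher in A384T than in R397W (1.13 ± 0.27, 0.0398). Of 23 measured of 25 adaptors and cargo partners, none was called in a mutant against WT hCD2 (3, 2 and 3 at an unadjusted p under 0.05 in A384T, I363V and R397W). Shares of all genes called in these comparisons were 0.269%, 0.863% and 2.13%. Tom1l2, of the Tom1 family that binds Myo6 on endosomes, was higher in A384T than in Tconv (0.76 ± 0.19, adjusted p = 0.0341). Sh3kbp1, an endocytic adaptor, was lower in A384T than in R397W (-1.25 ± 0.26, adjusted p = 0.0211).

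Of 31 measured of 34 cortical actin and motility genes, 1 was called in A384T against WT hCD2 (0.269% of all genes): Enah, an actin filament elongation factor of the Ena/VASP family (1.71 ± 0.18, adjusted p = 0.00116). Enah also rose within A384T mice (1.24 ± 0.16, adjusted p = 0.0023) and exceeded I363V (2.01 ± 0.16, 3.20e-05) and R397W (2.22 ± 0.16, 3.81e-06). No gene of this list was called in I363V or R397W against WT hCD2 (0.863% and 2.13% of all genes), where 5 and 6 had an unadjusted p under 0.05. In WT Treg minus Tconv, Capg, which caps filament ends, was 3.11 ± 0.25 higher (adjusted p = 1.65e-06) and Gsn, the severing protein gelsolin, 1.31 lower (-1.31 ± 0.25, 0.00607). Enah was also called higher there (0.71 ± 0.17, adjusted p = 0.0263). Capg was higher in A384T than in I363V (1.19 ± 0.24, adjusted p = 0.0264) and R397W (1.05 ± 0.24, 0.0312). The medians of the 4 lists in mutants minus WT hCD2 lay between -0.18 and 0.07.

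The genes with the most similar pattern were found by the root mean square difference of their largest-variance probe set from that of the member over the 18 arrays. For Myo1f these were Lgals3 (0.51), which encodes galectin-3, Il18rap (0.54), a chain of the IL-18 receptor, and Ctla2b (0.55). Lgals3 had group means of -1.58, -0.70 and -1.32 in A384T, I363V and R397W, against 1.13 in WT hCD2. For Myo1e they were Cd79b (0.30), a signalling chain of the B cell receptor, She (0.32) and Pdcd1 (0.32), which encodes PD-1. Cd79b is also on the list of B cell markers, whose 8 measured genes had array medians from -0.42 to 0.24 over all groups, and the part of B cells in Myo1e was not tested. For Myo6 the nearest were Cd86 (0.80), Ttc39b (0.82) and Trpm1 (0.82). These lay farther away: Cd86 had means of 0.40 in A384T, 1.57 in I363V and 1.39 in R397W, with 1.55 in WT hCD2.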

How the data were processed

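RNA of 18 sorted samples was amplified and biotinylated by a two-cycle protocol for Affymetrix chips, per the labels' protocols. The deposited log2 values are the authors' RMA output, per the submitters' processing notes, which give no version, and the log base follows the convention of RMA. At every probe set the 2 Tconv arrays sum to at most 1.0e-06, so the deposited values are differences from the Tconv mean, levels are lost, and no filter on dim probe sets could be applied. Scanner files were not used here, and scan batches were not analysed here. Promoter windows are those of RefSeq's GRCm38.p6, matched by gene symbol, and no coordinate of the deposited data was used.

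The chip annotation assigned 34945 of 45101 probe sets to 1 gene (18193 genes), 932 to several and 9211 to none, and 13 control probe sets were set aside. Group means of all 7 groups were fitted to the 34945 probe sets with limma 3.58.1 in R 4.3.3 (11 residual and 3.7 prior degrees of freedom). Every p is two-sided and adjusted by Benjamini-Hochberg over all 34945 probe sets, and a gene was called at an adjusted p under 0.05 of its largest-variance probe set. Shares of all genes called are over the 18193 such probe sets. Tables used pandas 2.3.3 and numpy 2.4.6 in Python 3.11.15, and matplotlib 3.10.9 drew the plots. The fit was tested on simulated data. With 2 or 3 arrays a group, their number sets the precision.

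Every member is named, and list genes are named for some of the comparisons that called them. The 3 nearest genes are given for the members with the largest variance. The members and lists were chosen with earlier results of these data known, so counts over them are descriptions. Equal replicate numbers of A384T and of WT GFP in A384T mice deviated together (correlations of deviations 0.69, 0.65 and 0.58, unequal numbers -0.45 to -0.16), a pairing seen in the data that no label states. Where a 2-array group lost 1 array, the other was assumed to vary like the rest. Alternatives were the probe sets tested, the mean of a gene's probe sets, only the groups compared, a robust prior, median centring, a fold minimum of 2, another wild-type group, replicate blocks and leaving out each array.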

Additional observations from a re-analysis of the deposited data

Results flagged for a closer look

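The difference between mutants was tested directly for each member, at its leading probe set. Myo6 was lower in A384T than in I363V (-2.72) and than in R397W (-2.86), below every array of both in 3 of 3 A384T arrays. Myo1e (0.87) and Myo3b (0.77) were higher in A384T than in R397W, in 3 of 3 A384T arrays above all R397W arrays. Groups of 2 or 3 arrays are too small for a test of single outlying arrays.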

How the results depend on the processing

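Of 126 pairs of a member and a comparison, 30 were called. Of these, 15 were called in every fit that left out 1 array and 13 under all other alternatives, and no value changed sign under any alternative. Fitted on only the groups compared, no member was called in A384T, I363V or R397W minus WT hCD2 (0, 0 and 0 in place of 3, 1 and 3), 2 were called in I363V minus Tconv, 1 in R397W minus Tconv and 1 in A384T minus R397W. Such a fit has fewer samples to estimate the spread. In I363V minus WT hCD2, 2 members were called with 1 probe set per gene, 2 with the mean of a gene's probe sets and 2 with the mean of WT hCD2 and WT GFP in place of WT hCD2, each adding Myo1e. With the mean of a gene's probe sets, 2 were called in A384T minus I363V, adding Myo3b. With a fold minimum of 2, 1 was called in A384T minus R397W, since Myo1e and Myo3b are under it. The cause of the other changes was not tested.

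Leaving out each array in turn gave 0 to 3 members called in A384T minus WT hCD2, 0 to 1 in I363V minus WT hCD2, 1 to 3 in R397W minus WT hCD2 and 2 to 2 within A384T mice. It gave 3 to 5 in WT Treg minus Tconv, 3 to 4 in A384T and in I363V minus Tconv, and 2 to 6 in R397W minus Tconv. Between mutants it gave 1 to 2 in A384T minus I363V, 1 to 3 in A384T minus R397W and 0 to 0 in I363V minus R397W.

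With the replicate block, 4 members were called within A384T mice in place of 2. A384T, I363V and R397W share only a number: with the block, 1 was called in A384T minus I363V (Myo6, adjusted p = 0.0243), 1 in A384T minus R397W (Myo6, 0.0272) and 0 in I363V minus R397W. With the block, 0 were called in WT GFP in A384T mice minus WT GFP. Deviations of WT GFP and of Tconv with the same number correlated at 0.71. With 2 arrays a group the deviations are mirror images, so this is 1 correlation, which does not settle a pairing. WT hCD2 replicate 3 and WT GFP replicate 1 correlated at 0.77, under different numbers, and no block was fitted for WT hCD2 minus WT GFP. Blocked, WT GFP minus Tconv called 6 members: Myo1f (0.79, adjusted p = 0.00216) and Myo9a (-0.64, 0.0103) besides Myo1e, Myo3b, Myo6 and Myo10. Shares of all genes called in blocked fits were not computed, so the blocked counts stand without them. No paired analysis was possible for mutants minus WT hCD2 because they share only the number 3. Signal over background is not known, so dim members could not be told from absent ones.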
